A study of Rattus norvegicus with 8 samples.

Results

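Collagens, laminins and integrins are the matrix proteins that cells lay down and the receptors that hold cells to them. Their genes were measured after 1 hr of TGF-beta-1 treatment in rat intestinal epithelial cells, with and without an activated Ras. The genes were chosen by symbol: every feature was taken whose platform annotation starts with Col and a digit, with Lama, Lamb or Lamc and a digit, or with Itga or Itgb and a digit or one of the letters X, V, L, M, E and D. This gave 39 genes on 65 features, out of 17402 genes and unnamed features (9652 of them named genes) on 20500 features. They comprised 15 collagen chains on 21 features, 5 laminin chains on 17 features and 15 integrin subunits on 22 features. The remaining 4 genes, on 5 features, match by symbol but encode no such chain.

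RIE-Ras cells are RIE cells, an untransformed rat intestinal epithelial line, that were stably transfected with pSV2-H-Ras(12V) and so express the constitutively active human H-Ras(12V) protein. The labels do not say whether the transfected line is 1 clone. Each line had 4 two-channel arrays. On every array total RNA of treated cells (TGF-beta-1 at 2 ng/ml, for 1 hr) was set against total RNA of control cells of the same line, so no array compares RIE-Ras with RIE cells directly. Values below are on a log2 scale, the treated signal over the control signal relative to the median of the array, and they show no level of expression. For the same reason the epithelial identity of the lines could not be checked by marker levels. Whether separate cultures lie behind the arrays is not in the labels, so the p-values rest on a spread among samples that may be technical only.

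Collagens are trimers of alpha chains. The fibrillar types form the fibres of connective tissue, whereas type IV collagen forms a network in basement membranes, the sheets on which epithelia rest. Laminins, built of 1 alpha, 1 beta and 1 gamma chain, are the other main network of basement membranes. Integrins, heterodimers of an alpha and a beta subunit, bind these proteins outside the cell and connect them to the cytoskeleton. TGF-beta is a known inducer of collagen, laminin and integrin genes in fibroblasts and epithelia, acting through Smad proteins that recognise short DNA elements with the core CAGAC.

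The stretches just before the start of 5 of the genes are shown, for genes picked after their values were seen. Single features of Lamc1 and Itga5 lay wholly higher in RIE-Ras than in RIE cells, as did a feature of Col15a1, whose stretch is not shown. These were 4.62% of the 65 features, beside 4.99% of all features. Averaged over their features, Lamc1 and Itga5 differed between the lines by 0.24 ± 0.19 and 0.10 ± 0.22 and did not pass (limma adjusted p = 0.695 and 0.903). Col1a2 had the most negative mean ratio of the 39 genes, and Col4a3 and Col4a4 are neighbours that start back to back. Each is the 250 bases before the RefSeq start in assembly GRCr8, 5′ to 3′ on the gene's strand, with CAGAC and its reverse complement GTCTG in capitals.
Col1a2, chr4:33518307-33518556, plus strand: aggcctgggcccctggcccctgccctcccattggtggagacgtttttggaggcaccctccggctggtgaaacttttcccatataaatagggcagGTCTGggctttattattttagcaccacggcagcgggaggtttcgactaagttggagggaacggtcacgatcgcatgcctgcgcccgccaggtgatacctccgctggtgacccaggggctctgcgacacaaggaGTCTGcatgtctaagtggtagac
Col4a3, chr9:91323740-91323989, plus strand: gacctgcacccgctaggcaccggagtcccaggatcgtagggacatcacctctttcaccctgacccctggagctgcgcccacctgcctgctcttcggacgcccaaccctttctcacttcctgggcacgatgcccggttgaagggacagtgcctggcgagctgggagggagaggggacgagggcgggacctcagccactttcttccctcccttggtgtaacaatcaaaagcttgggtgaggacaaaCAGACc
Col4a4, chr9:91323578-91323827, minus strand: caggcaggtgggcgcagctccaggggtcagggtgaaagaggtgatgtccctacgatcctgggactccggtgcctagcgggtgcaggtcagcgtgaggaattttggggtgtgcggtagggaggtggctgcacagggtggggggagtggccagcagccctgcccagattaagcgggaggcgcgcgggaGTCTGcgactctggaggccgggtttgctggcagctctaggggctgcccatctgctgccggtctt
Lamc1, chr13:68051987-68052236, minus strand: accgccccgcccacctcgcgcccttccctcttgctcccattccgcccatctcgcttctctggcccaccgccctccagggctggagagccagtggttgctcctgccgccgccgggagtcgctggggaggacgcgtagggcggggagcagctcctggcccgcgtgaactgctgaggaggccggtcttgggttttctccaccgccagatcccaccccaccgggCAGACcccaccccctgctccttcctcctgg
Itga5, chr7:136381306-136381555, minus strand: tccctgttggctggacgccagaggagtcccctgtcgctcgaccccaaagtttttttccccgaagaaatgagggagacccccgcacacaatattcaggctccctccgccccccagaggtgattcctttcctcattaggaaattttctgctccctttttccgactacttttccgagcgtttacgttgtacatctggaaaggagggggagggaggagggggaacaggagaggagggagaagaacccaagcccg
Col1a2 holds 2 matches, beginning 156 and 23 bases before the start. Col4a3, Col4a4 and Lamc1 hold 1 each, and the Itga5 window holds none. Col4a3 and Col4a4 lie on opposite strands of chromosome 9 with 412 bases between their starts, so their windows share 88 bases. Promoters were listed for 31 of the 39 genes, and 17 of them (54.8%) held a match on either strand, against 42.9% of 33469 promoters of that length. A match is a description of the letters and not a binding site.

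The arrays of a line were not equally alike. Across all features RIE-Ras replicate 1 correlated with the other RIE-Ras arrays at -0.041, -0.015 and 0.161, and RIE replicates 3 and 4 with each other at 0.688, and with any 1 array left out 0 of the 39 genes passed, where 0 to 137 of all features did in RIE-Ras cells, 0 to 30 in RIE cells and 0 to 2 in their contrast.

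None of the 39 genes passed an adjusted p of 0.05 in limma, in either line or between the lines. Over all 17402 genes and unnamed features 73 passed in RIE-Ras cells (0.419%), 13 in RIE cells (0.0747%) and 0 in the contrast of the lines (0%). At an unadjusted p under 0.05 there were 3 genes with positive and 2 with negative means in RIE-Ras cells (10.9% and 8.45% of all features), and 2 with positive and 4 with negative means in RIE cells (6.03% and 11.5%). In the contrast 2 were higher and 1 lower in RIE-Ras cells (6.8% and 3.87%). Of the 39 genes, then, 12.8% in RIE-Ras cells, 15.4% in RIE cells and 7.69% in the contrast had an unadjusted p under 0.05, where the shares of all features were 19.3%, 17.5% and 10.7%. The median of the 39 means was 0.01 in RIE-Ras cells and -0.01 in RIE cells, against 0.01 and -0.01 for all features, though families differed, with collagens at 0.09 and -0.18, laminins at 0.05 and 0.02 and integrin subunits at -0.03 and 0.03. Means were above 0 for 20 of the 39 genes in RIE-Ras cells and for 18 in RIE cells, where 50.8% and 49.2% of all features were, and 22 differences between the lines were positive, where 55.4% of all were. Means further than 0.5 from 0 were found for 7 genes in RIE-Ras cells (17.9%, against 13.7% of all features) and for 3 in RIE cells (7.69%, against 11.4%). Without centring the medians of all features were 0.29 in RIE-Ras cells and 0.35 in RIE cells, so every sign given here is relative to the typical feature. In that setting 8 of the 39 genes passed in RIE-Ras cells (20.5%, all higher) and 9 in RIE cells (23.1%, 8 higher and 1 lower), near the shares of all features, 21% and 23.3%.

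**Figure D1:**
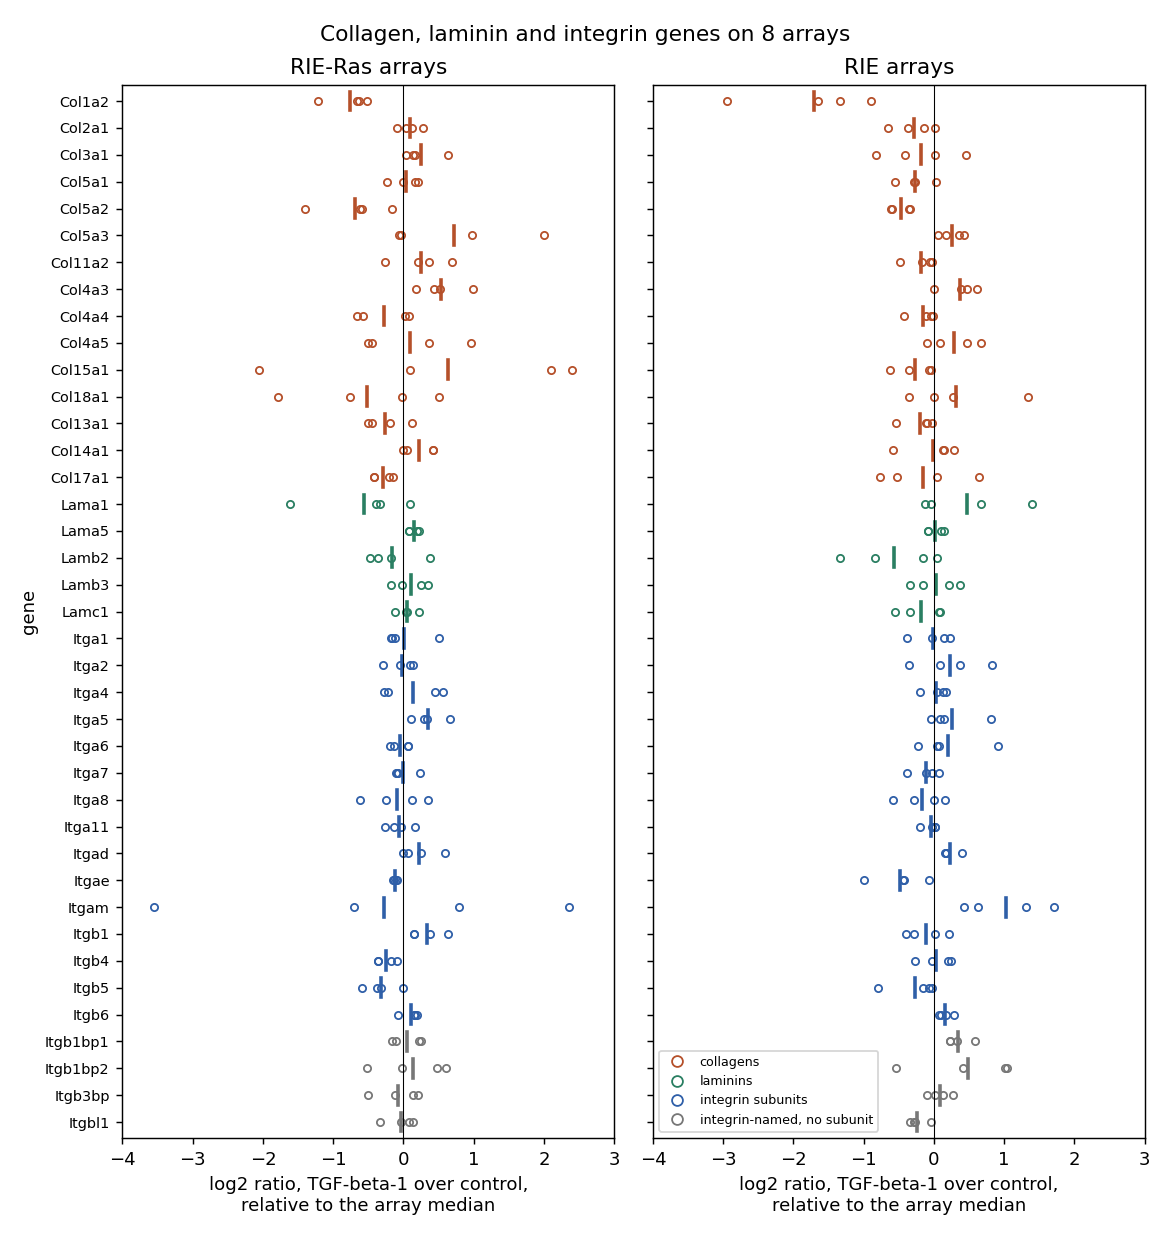
Log2 ratio of TGF-beta-1 treated over control signal, relative to the array median, for the 39 genes, with RIE-Ras arrays on the left and RIE arrays on the right; circles are the 4 arrays of a line and vertical bars their mean. Most genes straddle 0, Col1a2 lies left of 0 on all 8 arrays, and Itgam and Col15a1 scatter over more than 4 units between RIE-Ras arrays.

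Among the fibrillar collagens, Col1a2, the alpha 2 chain of type I collagen, lay lowest. On RIE-Ras replicates 1 to 4 it stood at -0.66, -1.22, -0.52 and -0.63, and on RIE replicates 1 to 4 at -1.64, -2.95, -0.89 and -1.34. All 8 arrays were below 0, and the lines overlapped only in that RIE-Ras replicate 2 lay below RIE replicate 3. The mean was -0.76 ± 0.29 (log2 ± moderated SE, n = 4) in RIE-Ras cells, 1.69-fold lower in treated than in control cells (limma adjusted p = 0.207). In RIE cells it was -1.71 ± 0.29, a 3.27-fold lower signal (limma adjusted p = 0.0755), the 14th lowest mean of 17402. The difference between the lines, 0.95 ± 0.41, did not pass (limma adjusted p = 0.460). In RIE cells the call depended on the setting. Col1a2 passed without centring (-1.35, limma adjusted p = 0.0228), where 23.3% of all features passed, and with array weights (-1.16, limma adjusted p = 0.00453), where 37.6% did. It also passed after quantile normalization (-1.75, limma adjusted p = 0.0498) and when features ranging over more than 4 units were left out (limma adjusted p = 0.0427). It did not pass with RIE cells fitted alone (limma adjusted p = 0.194), with the replicate block (limma adjusted p = 0.169) or with RIE replicates 3 and 4 averaged (limma adjusted p = 0.225). When each array was left out in turn, the RIE mean ran from -1.98 to -1.29 and the adjusted p from 0.0648 to 0.259. Only 1 feature represents the gene.

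Col5a2, a chain of type V collagen, which is incorporated into type I fibrils, was the other fibrillar gene below 0 on all 8 arrays. Averaged over its 2 features it was at -0.62, -1.40, -0.59 and -0.16 on the RIE-Ras arrays and at -0.62, -0.34, -0.35 and -0.59 on the RIE arrays. Its means were -0.69 ± 0.18 in RIE-Ras cells (limma adjusted p = 0.102) and -0.47 ± 0.18 in RIE cells (limma adjusted p = 0.232). The 2 features differed. Feature 1 averaged -1.40 in RIE-Ras cells and -0.72 in RIE cells, whereas feature 2 averaged 0.01 and -0.22. Of the 39 genes 3 lay below 0 on all 8 arrays (Col1a2, Col5a2 and Itgae, 7.69%), and 4.72% of all features did. None lay above 0 on all 8, where 3.03% of all features did.

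The other fibrillar chains gave smaller or less even values. Col5a3, a further type V chain, was at 1.99, -0.07, 0.98 and -0.04 on the RIE-Ras arrays and between 0.05 and 0.42 on the RIE arrays. Its RIE-Ras mean of 0.72 ± 0.30, the highest of the 39 genes, therefore rested on replicates 1 and 3 (limma adjusted p = 0.246). Col3a1, the type III chain, was above 0 on the 4 RIE-Ras arrays (0.17, 0.63, 0.14 and 0.04), and on the RIE arrays at 0.01, 0.46, -0.41 and -0.82. Col2a1 and Col11a2, best known from cartilage, had means of 0.09 and 0.25 in RIE-Ras cells and of -0.28 and -0.18 in RIE cells. They differed between the lines by 0.37 ± 0.18 and 0.43 ± 0.22, within the 6 smallest p of the contrast, but did not pass (limma adjusted p = 0.508 and 0.529). Col5a1, the major type V chain, was at 0.03 in RIE-Ras cells and -0.27 in RIE cells. Of the 7 fibrillar chains 5 had positive means in RIE-Ras cells and 1 in RIE cells (beside 50.8% and 49.2% of all features), with medians of 0.09 and -0.27. The difference between the lines was positive for 6 (beside 55.4% of all features), with a median of 0.43 where all features had 0.04. Col11a2, Col2a1, Col3a1 and Col5a1 were lowest on RIE replicate 4 (-0.48, -0.66, -0.82 and -0.55), the array with the widest spread. Col1a2, Col5a2 and Col5a3 were not lowest there.

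The collagens of basement membranes did not move as a block. Col4a3, Col4a4 and Col4a5 encode chains that assemble into one trimer, known from the kidney glomerulus. Col4a3 was at 0.44, 0.99, 0.53 and 0.18 on the RIE-Ras arrays and at 0.00, 0.48, 0.38 and 0.62 on the RIE arrays, so no array lay below 0. Its mean was 0.53 ± 0.15 in RIE-Ras cells (limma adjusted p = 0.127) and 0.37 ± 0.15 in RIE cells (limma adjusted p = 0.260). Its back-to-back neighbour Col4a4 was at -0.67, 0.02, 0.08 and -0.57 on the RIE-Ras arrays and at -0.43, -0.01, -0.05 and -0.11 on the RIE arrays, with means of -0.28 ± 0.15 and -0.15 ± 0.15. On each of the 8 arrays Col4a3 exceeded Col4a4. This sets ratios side by side and not levels, and the pair was chosen after its values were seen. Col4a5 scattered around 0, from -0.50 to 0.96 on the RIE-Ras arrays and from -0.10 to 0.67 on the RIE arrays.

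Col15a1 and Col18a1, which encode collagens that sit at basement membranes and release antiangiogenic fragments, each had 1 feature that ranged over more than 4 units and 1 that did not. Feature 1 of Col15a1 was above 0 on every RIE-Ras array (0.70, 0.57, 1.25 and 0.23) and below 0 on every RIE array (-0.05, -0.38, -0.48 and -1.33). The line means were 0.69 and -0.56, and the difference of 1.25 ± 0.31 did not pass when each feature was tested on its own (limma adjusted p = 0.254). Feature 2 of the same gene ran from -4.82 on RIE-Ras replicate 1 to 3.65 on RIE-Ras replicate 2. Averaging both gave 0.63 ± 0.62 in RIE-Ras cells and -0.27 ± 0.62 in RIE cells. For Col18a1, feature 1 stayed between -0.27 and 0.00 on the 8 arrays, and feature 2 ranged over 6.35 units.

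Among the remaining collagens, Col17a1, the transmembrane collagen of hemidesmosomes, was below 0 on the 4 RIE-Ras arrays (-0.20, -0.43, -0.15 and -0.42), while the RIE arrays spread from -0.76 to 0.64. Col13a1, another transmembrane collagen, had means of -0.26 ± 0.14 in RIE-Ras cells and -0.20 ± 0.14 in RIE cells. Its RIE arrays stood at -0.12, -0.02, -0.10 and -0.54, and without RIE replicate 4 that mean was -0.0807. Col14a1, a collagen on the surface of fibrils, had means of 0.22 ± 0.16 and -0.01 ± 0.16. Over all 15 collagens 9 means were positive in RIE-Ras cells and 4 in RIE cells, with medians of 0.09 and -0.18. On RIE replicates 1 to 4 the collagen median was -0.28, -0.02, -0.07 and -0.11, so RIE replicate 1 lay lowest.

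**Figure D2:**
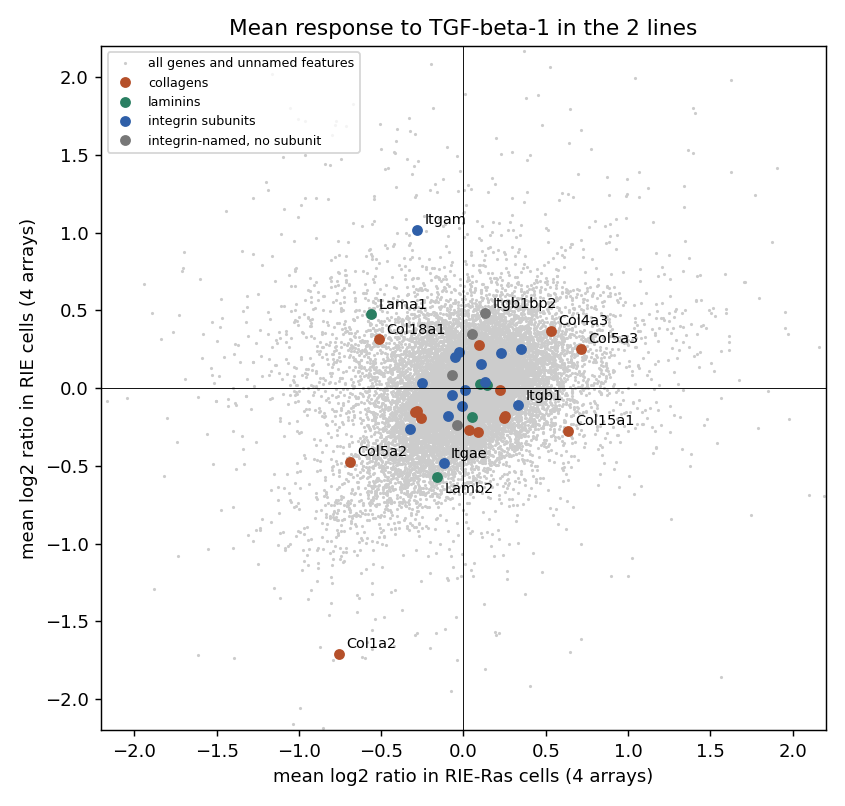
Mean log2 ratio of TGF-beta-1 treated over control signal in RIE-Ras cells (x axis) and in RIE cells (y axis), each over 4 arrays; grey points are all genes and unnamed features and coloured points the 39 genes. Col1a2, at -0.76 in RIE-Ras cells and -1.71 in RIE cells, lies apart from the other 38, which sit within the grey cloud.

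The laminin chains were measured on more features, and features of one gene went different ways. Lamc1 encodes the gamma 1 chain, shared by most laminins, and its average was close to 0: 0.04, -0.12, 0.23 and 0.06 on the RIE-Ras arrays, and 0.08, 0.07, -0.34 and -0.55 on the RIE arrays. Its 5 features differed from each other. Feature 2 stood at 0.55, 0.38, 0.61 and 0.55 on the RIE-Ras arrays and at 0.25, 0.29, 0.01 and -0.05 on the RIE arrays, without overlap. Tested on its own it was at 0.52 ± 0.11 in RIE-Ras cells (limma adjusted p = 0.0607) and 0.12 in RIE cells, a difference of 0.40 ± 0.15 (limma adjusted p = 0.408).

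Features 1 and 5 of Lamc1 behaved differently from feature 2. Feature 5 was at -0.14, -0.27, 0.26 and -0.49 on the RIE-Ras arrays and at -0.16, -0.06, -0.92 and -1.32 on the RIE arrays. Feature 1 was at -0.24, -0.55, 0.31 and -0.43 on the RIE-Ras arrays and at -0.35, -0.14, -0.71 and -1.56 on the RIE arrays. The single feature of Lamb2, a laminin beta chain, followed them array by array, with -0.17, -0.37, 0.38 and -0.48 in RIE-Ras cells and 0.05, -0.15, -0.84 and -1.34 in RIE cells. Feature 5 of Lamc1 differed from it by 0.08 on average and by at most 0.20 on any array, the closest of the 20499 other features. Feature 1, with an average gap of 0.14, was the 20th closest. Features of other genes lay about as near, among them Entrep3 (0.09), Lipa (0.10) and Pcsk6 (0.11), so the profile was not particular to laminin chains. The other 3 features of Lamc1 had average gaps of 0.55 to 0.69, near the median gap of all features, 0.58. This likeness was noticed in the values and carries no test. The low values of all 3 features stood on RIE replicates 3 and 4, the pair with the highest correlation of a line (other pairs of 1 line had r from -0.041 to 0.354), and whether these arrays share more than the treatment was not tested. Lamb2 as a gene was at -0.16 ± 0.23 in RIE-Ras cells and -0.57 ± 0.23 in RIE cells (limma adjusted p = 0.753 and 0.258).

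**Figure D3:**
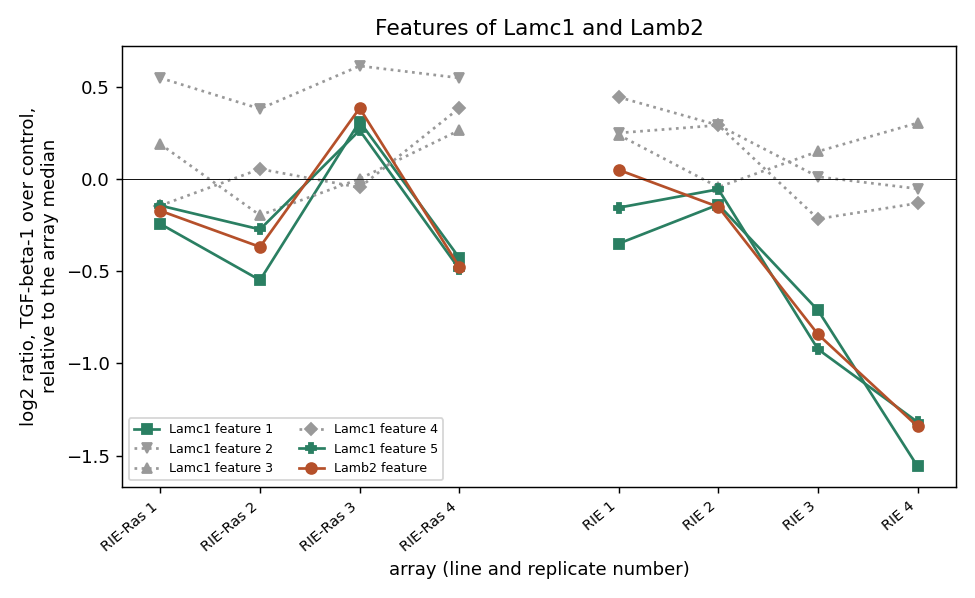
Log2 ratio (y axis) of the 5 features of Lamc1 and the 1 feature of Lamb2 on each RIE-Ras array and each RIE array (x axis), with lines joining arrays of one line only to guide the eye. Features 1 and 5 of Lamc1 follow the Lamb2 feature down to -1.56 and -1.32 on RIE replicate 4, while feature 2 is at 0.38 to 0.61 on the RIE-Ras arrays.

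The alpha chains and Lamb3 completed the laminins. Lama1, the alpha chain of the laminin of early basement membranes, was at -1.62, 0.09, -0.34 and -0.39 on the RIE-Ras arrays and at -0.13, 0.67, -0.04 and 1.39 on the RIE arrays. Its difference between the lines, -1.04 ± 0.44 (limma adjusted p = 0.460), had the smallest p of the 39 genes in that contrast. It came mostly from feature 3, with values from -5.03 on RIE-Ras replicate 1 to 3.86 on RIE replicate 4, and the difference was -0.30 when features ranging over more than 4 units were left out. Lama5, the alpha chain of a main laminin of adult epithelia, was the steadiest of the laminins: averaged over 5 features it was above 0 on the RIE-Ras arrays (0.08, 0.08, 0.20 and 0.23) and between -0.08 and 0.14 on the RIE arrays, with means of 0.15 ± 0.09 and 0.02 ± 0.09. Lamb3, a chain of the laminin that anchors hemidesmosomes, had means of 0.10 and 0.02, and its feature 2 ran from -0.71 to 0.66 in RIE-Ras cells and from -0.95 to 1.36 in RIE cells.

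Among integrins the subunits of the fibronectin receptor, Itga5 and Itgb1, had the highest means in RIE-Ras cells. Itga5, the alpha 5 subunit, averaged over 4 features, was at 0.30, 0.33, 0.11 and 0.67 on the RIE-Ras arrays and at 0.81, 0.15, -0.04 and 0.09 on the RIE arrays. Its means were 0.35 ± 0.16 (limma adjusted p = 0.260) and 0.25 ± 0.16 (limma adjusted p = 0.436), and the difference was 0.10 ± 0.22. Feature 4 was the most even: 0.51, 0.44, 0.36 and 0.57 on the RIE-Ras arrays against -0.04, 0.07, 0.07 and -0.04 on the RIE arrays. Tested on its own it was at 0.47 ± 0.09 in RIE-Ras cells (limma adjusted p = 0.0603) and 0.01 in RIE cells, and the difference of 0.46 ± 0.13 did not pass (limma adjusted p = 0.308). In RIE cells the gene's mean came largely from replicate 1, where features 2 and 3 stood at 1.70 and 1.13, and without that array it was 0.06.

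Itgb1, the beta 1 subunit that pairs with most matrix-binding alpha subunits, was above 0 on every RIE-Ras array (0.64, 0.15, 0.38 and 0.15), and on the RIE arrays at 0.22, 0.02, -0.28 and -0.40. The arrays overlapped. The means were 0.33 ± 0.14 in RIE-Ras cells (limma adjusted p = 0.233) and -0.11 ± 0.14 in RIE cells, and the difference of 0.44 ± 0.19 did not pass (limma adjusted p = 0.464). Above 0 on every RIE-Ras array were 5 of the 39 genes (Col3a1, Col4a3, Itga5, Itgb1 and Lama5, 12.8%), against 14.3% of all features. Averaged per gene, none of the 39 had lines that did not overlap, where 5% of all features lay higher and 2.5% lower in RIE-Ras cells. Of the 65 single features 3 lay wholly higher in RIE-Ras cells (feature 1 of Col15a1, feature 4 of Itga5 and feature 2 of Lamc1, 4.62%) and none wholly lower, where 4.99% and 2.49% of all 20500 features did. These 3 were picked out after their values were seen.

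**Figure D4:**
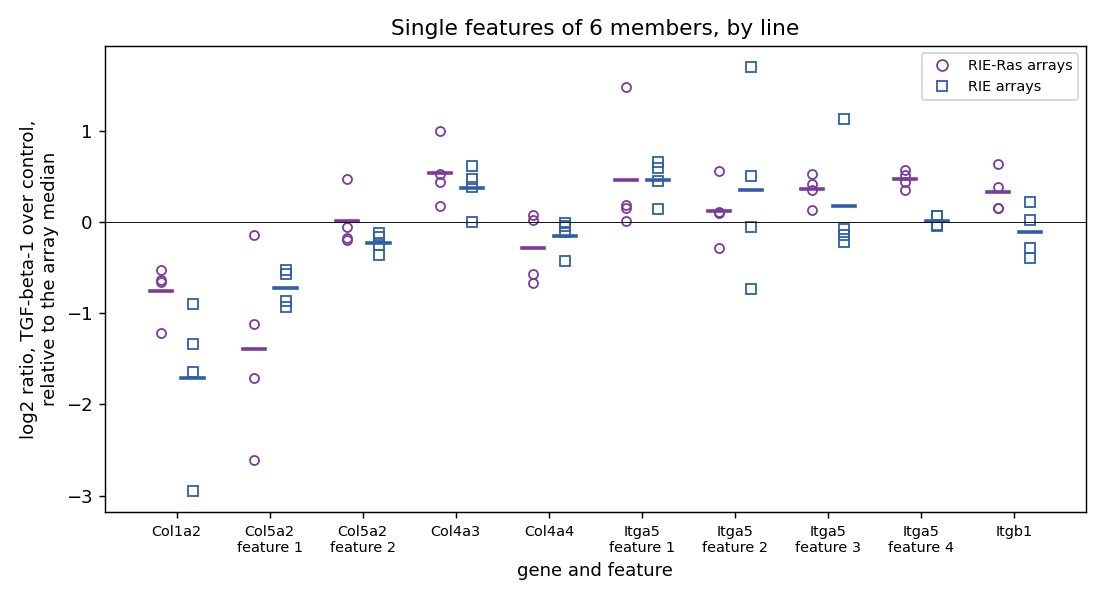
Log2 ratio (y axis) of single features of 6 genes (x axis), with circles for RIE-Ras arrays, squares for RIE arrays and bars for the mean of 4 arrays. Feature 4 of Itga5 lies between 0.36 and 0.57 on the RIE-Ras arrays and between -0.04 and 0.07 on the RIE arrays, and feature 1 of Col5a2 lies below 0 on all 8 while its feature 2 lies near 0.

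The remaining alpha subunits that bind matrix had means between -0.10 and 0.13 in RIE-Ras cells and between -0.18 and 0.23 in RIE cells. Itga1, Itga2 and Itga11, subunits of collagen receptors, were at 0.01, -0.03 and -0.07 in RIE-Ras cells and at -0.01, 0.23 and -0.05 in RIE cells. Feature 1 of Itga2 averaged 0.54 in RIE cells, with -0.17, 0.36, 0.72 and 1.24 on the 4 arrays (limma adjusted p = 0.250 on its own), and feature 2 averaged -0.08. The laminin receptor subunits Itga6 and Itga7 were at -0.05 and -0.01 in RIE-Ras cells and at 0.20 and -0.11 in RIE cells, where Itga6 stood at 0.92 on RIE replicate 1 and between -0.23 and 0.07 on the other RIE arrays. Itga4 and Itga8, which bind fibronectin and other matrix ligands, were at 0.13 and -0.10 in RIE-Ras cells and at 0.04 and -0.18 in RIE cells. The 2 features of Itga4 had opposite signs, at -0.39 and 0.65 in RIE-Ras cells and -0.13 and 0.20 in RIE cells.

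Of the beta subunits other than Itgb1, Itgb5, which pairs with alpha V, was at -0.38, -0.59, 0.00 and -0.33 on the RIE-Ras arrays and at -0.16, -0.03, -0.07 and -0.80 on the RIE arrays. Its means were -0.32 ± 0.15 and -0.26 ± 0.15 (limma adjusted p = 0.290 and 0.405), and without RIE replicate 4 the RIE mean was -0.0862. Itgb4, the hemidesmosome subunit that pairs with alpha 6, was below 0 on every RIE-Ras array (-0.09, -0.37, -0.18 and -0.37), and between -0.27 and 0.24 on the RIE arrays. Its means were -0.25 ± 0.12 (limma adjusted p = 0.277) and 0.03 ± 0.12. Itgb6, part of an epithelial integrin that activates latent TGF-beta, averaged 0.11 ± 0.10 and 0.15 ± 0.10. Below 0 on every RIE-Ras array were 5 of the 39 genes (12.8%, against 14.1% of all features), and on every RIE array 9 (23.1%, against 14.3%). Above 0 on every RIE array were 5 (12.8%, against 14.8%).

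The set also held subunits typical of leukocytes. Itgae, which with beta 7 binds E-cadherin, was below 0 on all 8 arrays: -0.13, -0.15, -0.10 and -0.10 in RIE-Ras cells and -0.43, -0.07, -0.44 and -1.0 in RIE cells. Its means were -0.12 ± 0.14 and -0.48 ± 0.14 (limma adjusted p = 0.685 and 0.157). Itgad and Itgam, partners of beta 2, had means of 0.23 ± 0.12 and -0.28 ± 0.76 in RIE-Ras cells and 0.23 ± 0.12 and 1.02 ± 0.76 in RIE cells. Itgam ran from -3.55 to 2.35 over the RIE-Ras arrays, and its single feature was among the 4 of the 65 (6.15%) that ranged over more than 4 units, against 4.21% of all features. The ratios do not show whether a leukocyte gene was expressed in these cells. Of 9 leukocyte markers 8 were measured, with medians of 0.02 in RIE-Ras cells and 0.08 in RIE cells. None was past the limma threshold, beside 0.419% and 0.0747% of all features (1 higher in each line at an unadjusted p under 0.05, beside 10.9% and 6.03% of all features).

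Of the 4 genes named after integrins without being subunits, Itgb1bp1 was above 0 and Itgbl1 below 0 on every RIE array. Itgb1bp1, which binds the tail of beta 1 and restrains its activation, was at -0.16, -0.10, 0.21 and 0.25 on the RIE-Ras arrays and at 0.23, 0.34, 0.23 and 0.59 on the RIE arrays, with means of 0.05 ± 0.12 and 0.34 ± 0.12 (limma adjusted p = 0.843 and 0.199). Itgb1bp2, known as the muscle protein melusin, averaged 0.13 ± 0.28 and 0.48 ± 0.28. Itgb3bp, a centromere protein, averaged -0.07 and 0.08, and Itgbl1, a secreted protein with integrin-like repeats, -0.04 and -0.24.

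How far features of one gene can be read together was examined for the 15 genes on more than 1 feature. The mean ratios of their features differed in sign for 7 genes in RIE-Ras cells (46.7%) and for 8 in RIE cells (53.3%), close to the shares of all 2266 genes on several features (46.7% and 53.5%). Those in RIE-Ras cells were Col5a2, Itga2, Itga4, Itgbl1, Lama1, Lama5 and Lamc1. In RIE cells they were Col14a1, Col15a1, Col18a1, Itga2, Itga4, Lama5, Lamb3 and Lamc1. The gap between 2 features of a gene on an array, averaged per gene, had a median of 0.50 for these genes, against 0.40 for all. It was smallest for Itga11 (0.10) and largest for Col15a1 (1.97).

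Around these genes the proteins that make, accompany and anchor the matrix were read from 5 lists, chosen like the 39 genes with earlier results of these data known. Of 17 measured genes of collagen synthesis and cross-linking 1 passed by limma in RIE-Ras cells and none in RIE cells. The shares of all features were 0.419% and 0.0747%. At an unadjusted p under 0.05 there were 2 higher and 1 lower in RIE-Ras cells (beside 10.9% and 8.45% of all features). In RIE cells there were 0 higher and 4 lower (beside 6.03% and 11.5%). The gene past the threshold in RIE-Ras cells was Lox, the oxidase that cross-links collagen, at 0.66 ± 0.10 (limma adjusted p = 0.0474). Bmp1, which cleaves procollagen, was at 0.50 ± 0.12 (limma adjusted p = 0.0806). In RIE cells the lysyl oxidase relative Loxl4 was at -1.0 ± 0.18 and the collagen chaperone Serpinh1 at -0.85 ± 0.18 (limma adjusted p = 0.0800 and 0.112). Serpinh1 was also below 0 on every RIE-Ras array (-0.81, -1.03, -0.45 and -0.44), whereas Loxl4 stood there at 0.10, 0.48, -0.01 and 0.76. The list medians were -0.02 and -0.14. The difference between the lines was positive for 12 of 17 (beside 55.4% of all features), led by Loxl4 at 1.33 ± 0.25 (limma adjusted p = 0.228).

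Of 27 other matrix proteins 1 passed by limma in RIE-Ras cells and none in RIE cells, beside the same shares of all features. The one was Thbs1, an activator of latent TGF-beta, at 0.87 ± 0.13 (limma adjusted p = 0.0454). Thbs1 was also above 0 on every RIE array (0.47, 0.40, 0.26 and 0.64), with a mean of 0.44 ± 0.13 (limma adjusted p = 0.168). At an unadjusted p under 0.05 there were 6 higher and 2 lower in RIE-Ras cells (beside 10.9% and 8.45% of all features). In RIE cells there were 2 higher and 2 lower (beside 6.03% and 11.5%). Ccn2, the connective tissue growth factor, was at 1.25 ± 0.22 in RIE-Ras cells (limma adjusted p = 0.0541), and Hspg2, the basement membrane proteoglycan perlecan, differed between the lines by 0.80 ± 0.24 (limma adjusted p = 0.330). Fbln5, a protein of elastic fibres, was at 0.42 ± 0.12 in RIE cells (limma adjusted p = 0.147). The medians of this list were 0.03 and 0.11. No feature of the whole array set passed in RIE-Ras cells after quantile normalization, with each line fitted alone, with the replicate block or without RIE-Ras replicate 2 or replicate 3, so the calls of Lox and Thbs1 end there.

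None of the 26 integrin-linked adhesion proteins passed by limma, beside 0.419% of all features in RIE-Ras cells and 0.0747% in RIE cells. The nearest in RIE-Ras cells was Ptk2, the focal adhesion kinase, at 0.60 ± 0.12 (limma adjusted p = 0.0642), and in RIE cells Cd151, a tetraspanin partner of laminin-binding integrins, at -1.05 ± 0.24 (limma adjusted p = 0.123). Cd151 stood at -0.73 ± 0.24 in RIE-Ras cells. At an unadjusted p under 0.05 there were 2 higher and 4 lower in RIE-Ras cells and 0 higher and 5 lower in RIE cells, where the shares of all features were 10.9% and 8.45%, and 6.03% and 11.5%. The medians were 0.00 and -0.03.

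Of the 12 other matrix receptors and the 26 matrix proteases and inhibitors none passed by limma either, beside 0.419% and 0.0747% of all features. At an unadjusted p under 0.05 the receptors had 2 higher and 2 lower in RIE-Ras cells and 1 higher and 2 lower in RIE cells, of 12 genes, where 19.3% and 17.5% of all features passed in either direction. They included the syndecan Sdc3 at 0.67 ± 0.22 in RIE-Ras cells (limma adjusted p = 0.165) and Sdc1 at -0.78 ± 0.19 in RIE cells (limma adjusted p = 0.133). Bcam, a receptor for laminin alpha 5, differed between the lines by -0.72 ± 0.19 (limma adjusted p = 0.286). The proteases and inhibitors had 2 higher and 5 lower in RIE-Ras cells and 2 higher and 4 lower in RIE cells, of 26 genes and beside the same 19.3% and 17.5% of all features, with Timp3, a matrix-bound inhibitor, at 0.72 ± 0.15 and Mmp7, an epithelial matrix protease, at -0.69 ± 0.16 in RIE-Ras cells (limma adjusted p = 0.0698 and 0.0852). The medians of the receptors were -0.11 and -0.06, and those of the proteases and inhibitors -0.10 and -0.12.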

How the data were processed

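The deposited values are log2 ratios, 1 per feature and array, with no missing value; per the labels, the authors gave a fold change of treated over control signal. The log2 scale was found from the values: every value gives a fold, in one or the other direction, that is a multiple of 0.01 within 0.01 of that step. Dyes, scanner, background correction, filter and within-array normalization are not stated in the labels or file, and no dye swap is stated. Signals behind the ratios were not used here, and the number of arrays limits the precision.

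Of 20500 features 12750 had 1 symbol in the platform annotation, 5 several and 7745 none. Symbols were updated through the GRCr8 gene table, which changed none of the 39. Each array was centred on its median (0.20 to 0.45 before centring), and features of one symbol were averaged. All 8 arrays were fitted in R 4.3.3 with limma 3.58.1 (lmFit, eBayes; 6 residual and 2.71 prior degrees of freedom), with two-sided p adjusted by Benjamini-Hochberg over each comparison's 17402 tests. The SE is the moderated one, so both lines share a spread per feature. Alternatives are in the closing section; leaving out features ranging over more than 4 log2 units was added after seeing the data.

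The genes, lists and rule for named genes were chosen with earlier results of these data known. The rule took every gene past the threshold, the 6 smallest p per comparison, the largest mean per role and line, genes whose features differ in sign, and per list those past the threshold and the 2 smallest p. Further genes are given by value. Not every list gene that the rule took is given, with Ctsb, Adam15, Adam10, Serpine2, Vasp, Fermt2, Cd47, Sdc2 and Fbn2 among those left out. Of 8 epithelial markers 5 were measured (medians 0.13 in RIE-Ras and 0.03 in RIE cells, none past the threshold, beside 0.419% and 0.0747% of all features).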

Additional observations from a re-analysis of the deposited data

Results flagged for a closer look

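In 136 sets of 4 arrays, over the genes singled out and the features of genes on several features, 7 (5.15%) had 1 array standing apart from the rest, and chance alone gives about 1 in 20. Itgb5 stood at -0.80 on RIE replicate 4. Feature 2 of Col5a1 stood at -0.48 on RIE-Ras replicate 2, feature 1 of Itga4 at -0.45 on RIE replicate 1, and feature 4 of Lama5 at 0.66 on RIE-Ras replicate 3. Itga5 had 2 such features, with feature 1 at 1.48 on RIE-Ras replicate 4 and feature 3 at 1.13 on RIE replicate 1. Feature 3 of Lama1 stood at -5.03 on RIE-Ras replicate 1.

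Feature 1 of Col15a1 had opposite signs in the lines, above 0 on all 4 RIE-Ras arrays and below 0 on all 4 RIE arrays, with a difference of 1.25. That difference had an unadjusted p of 0.00316 in limma and an adjusted p of 0.254 over 20500 features, so it failed the correction.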

How the results depend on the processing

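The count of genes past the threshold stayed at 0 of 39 in RIE-Ras cells, RIE cells and their contrast with equal spread per array, the median over features, robust eBayes, each line fitted alone (no contrast), RIE replicates 3 and 4 averaged, each of the 8 arrays left out, and each feature on its own (0 of 65). With few or none of all features past the threshold in many of these (0 and 1 with each line fitted alone, 0 to 137, 0 to 30 and 0 to 2 with 1 array left out), a 0 there says little about the 39 genes. Without centring, where the medians of all features were 0.29 and 0.35, it was 8 in RIE-Ras cells and 9 in RIE cells (20.5% and 23.1%, against 21% and 23.3% of all), and the medians of the 39 genes were 0.30 and 0.35. In RIE cells it was 12 (30.8%) with array weights (8.70 for RIE replicate 3), where 37.6% of all features passed, and 1, Col1a2, after quantile normalization (95 of all features), at an adjusted p under 0.10 (132) and without features ranging over more than 4 units (64), while it stayed at 0 in RIE-Ras cells and the contrast under these 4. In RIE-Ras cells the counts of all features were 66 with array weights, 0 after quantile normalization, 673 at an adjusted p under 0.10 and 253 without features ranging over more than 4 units. In the contrast 134 of all features passed with array weights and 0 in the rest of these settings. The replicate block left 0 in all 3 comparisons, of the 39 genes and of all features. Deviations of same-numbered arrays from their line means correlated between -0.054 and 0.065. These correlations cannot show whether same-numbered arrays were handled together, as even arrays of 1 line correlated as low as -0.041. None of the 39 genes passed in the main fit, so a repeat kept its side of the threshold by failing again. The mean of a line could not change with robust eBayes, each line fitted alone, the replicate block or an array of the other line left out. Of 533 repeats of single gene values, these included, 510 kept their sign and side of the threshold, 17 newly passed and 6 changed sign. Those 6 were Lamb2 in RIE-Ras cells (0.13) and Col13a1 (0.16), Itgb5 (0.0923) and Lamc1 (0.17) in RIE cells without centring, Itgb1bp2 in RIE-Ras cells without RIE-Ras replicate 2 (-0.0235) and Lamc1 in RIE-Ras cells without RIE-Ras replicate 3 (-0.0074, the lowest of its values with 1 array left out, which reach 0.108). The array spread (SD from the median absolute deviation) ran from 0.39 to 0.42 in RIE-Ras cells and from 0.24 to 0.55 in RIE cells, and no signal over background was used to limit features.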
